A study of Mus musculus with 4 samples.

Results

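The immunoglobulin variable (V) gene segments were represented by 12 of the 35556 probe sets on the array. A probe set was taken when every gene symbol in its annotation began with Igkv, Ighv or Iglv, which denote kappa, heavy and lambda V segments. All 12 belonged to the kappa light chain. No probe set was annotated to heavy chain V segments alone (0 of 35556) or to lambda V segments alone (0 of 35556), so usage of kappa and heavy segments could not be set side by side with members of both kinds. A further 13 probe sets list V segments beside other genes, mostly constant regions. Of these 7 carry kappa, 4 heavy chain and 2 lambda segments, and they are described after the 12.

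An antibody consists of heavy and light chains, and each B cell builds its own pair by joining 1 V segment to a joining segment, and in the heavy chain to a diversity segment as well. The joined gene is transcribed together with a constant region (Igkc for kappa, Igha for immunoglobulin A), and its transcripts become very abundant when a B cell turns into a plasma cell. In the gut most plasma cells lie in the lamina propria under the epithelium and secrete immunoglobulin A, which the epithelial receptor Pigr carries into the lumen.

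The RNA came from scrapings of mucosa and submucosa of the colon of male C57BL/6J mice, an inbred strain. Young mice were 4 months and old mice 21 months of age. All were run in on chow and then on the low-fat diet (10% of energy as fat). Some mice of each age stayed on that diet for 2 weeks while others received a high-fat diet (45% of energy as fat, palm oil). The RNA of each group (6 young or 8 old mice) was pooled and hybridized to 1 Affymetrix Mouse Gene 1.0 ST array, which gave 4 arrays: young low-fat, young high-fat, old low-fat and old high-fat. A pool hides the spread between mice, and no group had a replicate.

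The median log2 signal over annotated probe sets lay between 6.49 and 6.53 on the 4 arrays, and all 11 measured markers of colon epithelium had a signal over 50. The arrays differed in markers of other tissues. The summed linear signal of 8 smooth muscle markers was 3892 on the young high-fat array against 1466 to 1779 on the others, and that of 7 fat cell markers was 2657 on the old high-fat array against 661 to 1305. For Alb, serum albumin of liver, the old low-fat array read 355 and the others 29.8 to 33.7. Fewer cells of a type and less RNA per cell cannot be told apart in such samples.

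Of the 12 kappa probe sets, 9 are annotated to a single segment (8 different segments) and 3 to a pair of segments that their probes do not separate. All segments named by the 12 lie in the kappa locus on chromosome 6. In the order of the RefSeq gene table, which lists 162 kappa V segments and pseudogenes with Igkc beyond the last, they ran from place 3 (Igkv1-135) to place 148 (Igkv6-14). Segments of a family are similar in sequence and the joined gene of a B cell is mutated, so each value is the signal of a probe set and not a count of the transcripts of 1 segment. Signals of different probe sets cannot be ranked as usage, because probes differ in affinity.

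More of the 12 kappa probe sets read over 50 on the old than on the young arrays. Some values lay close to that cut, such as 49.9 for Igkv1-133 with Igkv1-135 (young low-fat) and 53.0 for Igkv4-91 (old high-fat). A reading below it does not show that a segment was not in use. A linear signal over 50, the intensity above which the study took a gene into account, was reached by 4 of the 12 on the young low-fat, 5 on the young high-fat and 8 on each old array. Among all annotated probe sets the number over 50 was 14410, 14192, 14199 and 14232 in the order young low-fat, young high-fat, old low-fat, old high-fat. Summed over the 12, the linear signal was 566, 700, 1973 and 1563 in that order. Signals over 50 on at least 1 array were found for 8 of the 12, and the other 4 are described by their values only.

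**Figure D1:**
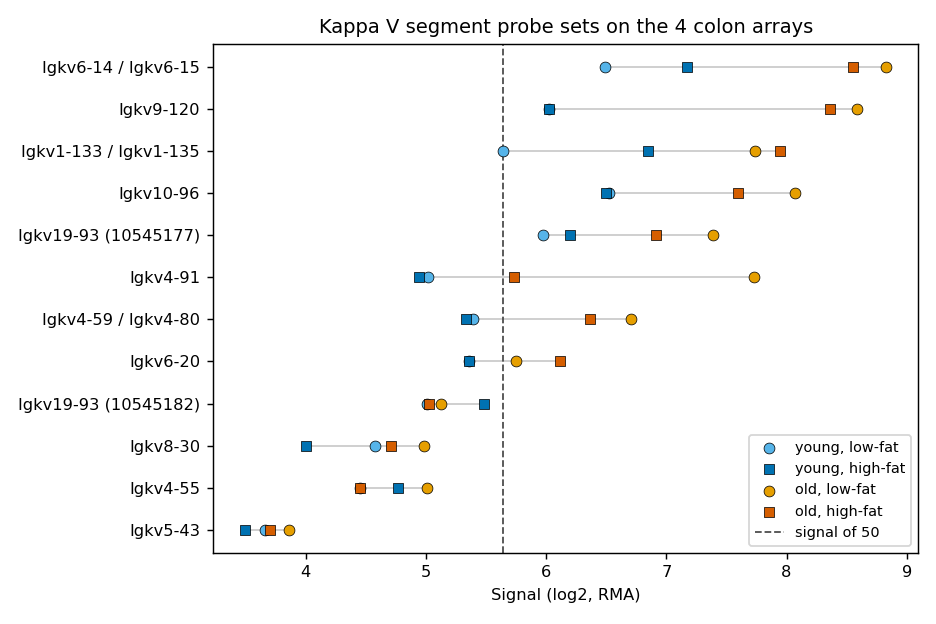
Log2 signal (horizontal axis) of the 12 kappa V segment probe sets, 1 row each, on the 4 arrays, with 1 point per array and no error because each group had 1 array; the dashed line marks a linear signal of 50. Rows are ordered by the mean of both old arrays, which is not an order of usage. In the upper 8 rows both old arrays lie to the right of both young arrays, while the lower 4 rows stay left of the line.

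On the low-fat diet 7 of the 12 kappa V segment probe sets were over 2.0-fold higher on the old array and 0 were lower, where 0.519% of the 14846 annotated probe sets over 50 were higher and 0.0606% lower. All 12 differences were above 0 (46.2% of all annotated probe sets were), with a median of 1.36 on the log2 scale, against -0.02 for all annotated probe sets without a floor. On the high-fat diet 5 were over 2.0-fold higher and 0 lower, where 0.64% of all were higher and 0.155% lower. Here 10 of 12 differences were above 0 (50.7% of all) and the median was 0.77, against 0.00 for all. Among the 9 members annotated to 1 segment alone, 4 (low-fat) and 2 (high-fat) were over 2.0-fold higher, with medians of 0.56 and 0.71. These single comparisons have no p-value because each sets 1 pool against 1 other. Both old arrays lay above both young arrays for 10 of the 12, as they did for 14.3% of all annotated probe sets, and below them for 0 (16.1% of all).

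Igkv9-120 showed the highest differences among the 12 on the high-fat diet and in the fit over all arrays. Its linear signals were 65.1 (young low-fat), 65.1 (young high-fat), 385 (old low-fat) and 328 (old high-fat). The young arrays were level, and both old arrays stood far above them. Age differences were 5.91-fold with the low-fat and 5.04-fold with the high-fat diet, each the 7th highest of 14846.

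Igkv10-96, a segment of another family, had signals of 92.1, 90.5, 268 and 193 in the order young low-fat, young high-fat, old low-fat and old high-fat. The young arrays were again level. Age differences were 2.92-fold (low-fat) and 2.13-fold (high-fat). The mixed probe set 10545175, which shares all 4 of its annotated transcripts, had a log2 value of 0.46 ± 0.16 for age and did not pass the fit described later (adjusted p = 0.72). The probe set annotated to both Igkv4-59 and Igkv4-80 (10545194) had the same form at a lower signal, with 41.9, 40.4, 104 and 82.6 in that order. Its folds of 2.49 and 2.05 are set against young signals below 50 and are not exact.

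In a pair of probe sets the young arrays differed as well. The one annotated to both Igkv6-14 and Igkv6-15 (10545247) had signals of 90.0 (young low-fat), 145 (young high-fat), 455 (old low-fat) and 376 (old high-fat). The one annotated to both Igkv1-133 and Igkv1-135 (10538871) had 49.9, 115, 213 and 247 in the same order. In both, the young high-fat array stood between the young low-fat array and the old arrays. Their age differences were lower on the high-fat diet, with 5.06-fold (low-fat) and 2.60-fold (high-fat) for Igkv6-14 and Igkv6-15. For that probe set the old high-fat array was also lower than the old low-fat array. For Igkv1-133 and Igkv1-135, whose young low-fat signal was just below 50, they were 4.27-fold and 2.14-fold.

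Igkv4-91 stood apart. Its signals were 32.3 (young low-fat), 30.7 (young high-fat), 212 (old low-fat) and 53.0 (old high-fat). A single array, the old low-fat one, carried a high signal, while the old high-fat array was just over 50. The age difference was 6.57-fold (low-fat) and 1.73-fold (high-fat), both against young signals below 50. The liver genes Alb and Serpina1c were high on the same array, with Serpina1c at 77.6 against 11.2 to 12.1 on the others. The other liver markers differed less between arrays, with Apoa1 at 88.5 to 120. Ttr, the brightest of them, was highest on the old high-fat array (546, against 517 on the old low-fat array). Of 7 liver markers measured, 5 were over 50 on at least 1 array. Summed over all 7, the signal was 1299 on the old low-fat array against 608 to 853. Whether this has a part in the signal of Igkv4-91 was not tested.

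Igkv19-93 was measured by a pair of probe sets that disagreed. The first (10545177) had signals of 62.9, 73.6, 168 and 120 in the order young low-fat, young high-fat, old low-fat and old high-fat, which gave age differences of 2.66-fold (low-fat) and 1.64-fold (high-fat). The second (10545182) had 32.1, 44.6, 34.9 and 32.6, never over 50, with its highest signal on the young high-fat array. Both are annotated through a shared transcript, and the second through 3 transcripts in all. All of these transcripts are shared with a mixed probe set (10545198) that names Igkv19-93 beside Igkc and Igkv4 segments. It had signals of 156, 165, 564 and 355 in the same order, which cannot be assigned to 1 of the genes it lists. The change described for Igkv19-93 thus rests on 1 of the 2 probe sets annotated to it alone.

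Igkv6-20 had signals of 41.1, 41.0, 53.6 and 69.3 in the same order of arrays. Its age differences were 1.31-fold and 1.69-fold and did not reach 2.0-fold. Igkv4-55 (21.9 to 32.2), Igkv5-43 (11.3 to 14.5) and Igkv8-30 (16.1 to 31.6) stayed below 50 on all 4 arrays. Igkv4-55, which belongs to the numbered family of Igkv4-91, had log2 age differences of 0.56 (low-fat) and -0.31 (high-fat). The 3 segments below 50 follow one another among the members along the locus, at places 105, 117 and 131, and segments over 50 lay on both sides of them.

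**Figure D2:**
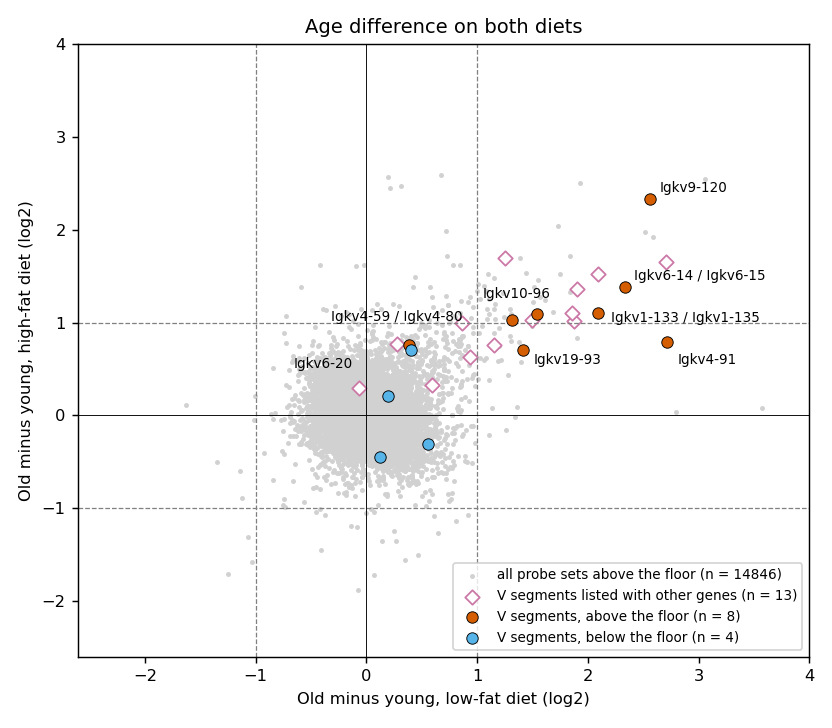
Old minus young log2 difference for mice given the low-fat diet (horizontal) and those given the high-fat diet (vertical); grey points are the 14846 annotated probe sets over 50, coloured circles the 12 kappa V segment probe sets and open diamonds the 13 probe sets that list V segments with other genes. Dashed lines mark 2.0-fold; 5 of the circles lie beyond it on both axes, with Igkv9-120 farthest to the upper right and Igkv4-91 far along the horizontal axis only.

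Both age comparisons, whose arrays are separate, had 5 of the probe sets past 2.0-fold in common: Igkv9-120, Igkv10-96, Igkv4-59 with Igkv4-80, Igkv6-14 with Igkv6-15, and Igkv1-133 with Igkv1-135. Of all 14846 probe sets over 50, 48 (0.323%) were higher on both diets by that measure. In 3 of the 12 (Igkv9-120, Igkv10-96, and Igkv6-14 with Igkv6-15) the lower old array was still over 2.0-fold above the higher young array, against 0.256% of all. For Igkv9-120 this gap was 5.04-fold. The members spread more widely than other probe sets, with a standard deviation of the age difference over the 12 of 0.96 (low-fat) and 0.74 (high-fat) on the log2 scale, against 0.25 in each comparison over all annotated probe sets.

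Age and diet were also fitted together over the 4 arrays with limma, which sets 2 old against 2 young pools. Of the 12 kappa V segment probe sets, 6 rose with age at an adjusted p under 0.05, 0 fell, 2 did not pass and 4 were not tested, where 0.573% of 14846 rose and 0.0404% fell. The count favours members that are high in old mice, since 3 of the 8 tested were over 50 on old arrays only (Igkv4-59 with Igkv4-80, Igkv4-91 and Igkv6-20). Igkv9-120 rose most, 5.46-fold (log2 change 2.45 ± 0.16 SE, adjusted p = 0.00016), the 2nd highest change of all probe sets. Next came Igkv6-14 with Igkv6-15 (1.86 ± 0.22, adjusted p = 0.0036), Igkv1-133 with Igkv1-135 (1.60 ± 0.22, adjusted p = 0.0083) and Igkv10-96 (1.32 ± 0.17, adjusted p = 0.0071). The lowest changes that passed were those of Igkv4-59 with Igkv4-80 (1.17 ± 0.16, adjusted p = 0.0083) and Igkv19-93 (1.06 ± 0.19, adjusted p = 0.040).

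The remaining pair did not pass the limma fit. Igkv4-91 had a change of 1.75 ± 0.34 (adjusted p = 0.057), the highest SE of the 8, and Igkv6-20 one of 0.57 ± 0.17 (adjusted p = 0.37). With 4 arrays the error of the fit comes from how far the age effect differs with diet, moderated over all probe sets, and says nothing of how replicate pools would vary. In 15 settings of the fit the adjusted p of Igkv9-120 stayed between 4.1e-06 and 0.013 and that of Igkv4-91 ran from 0.00050 to 0.70. Fitted for age alone over all 4 arrays, 4 passed, without Igkv19-93 and without Igkv1-133 with Igkv1-135. With 1 array left out the diet term could not be kept, and the error came from the 1 age group that still had 2 arrays, so those fits differ from the first in both respects. Against the 4 of the age-only fit, 3 passed without the old low-fat array (Igkv9-120, Igkv10-96, and Igkv6-14 with Igkv6-15), 5 without the young low-fat array, 6 without the young high-fat array and 6 without the old high-fat array, the last with Igkv4-91 and without Igkv1-133 with Igkv1-135. Without an intensity floor Igkv9-120 was the only one of the 12 that passed.

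**Figure D3:**
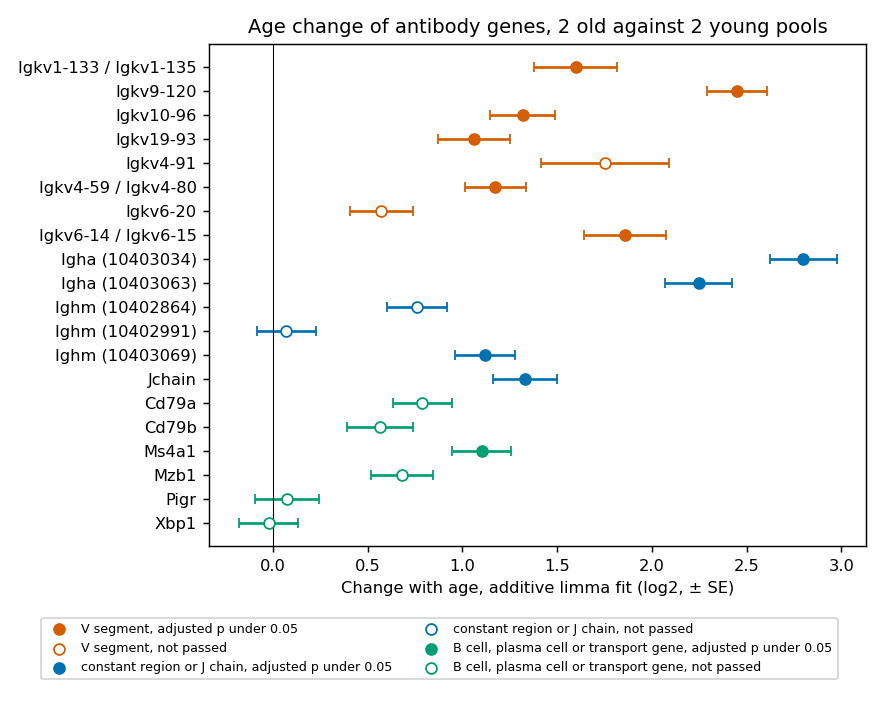
Change with age in the additive limma fit (log2, horizontal axis, bars are ± 1 SE) for the 8 kappa V segment probe sets over 50, the constant regions Igha and Ighm, the J chain gene, and genes of B cells, plasma cells and antibody transport; filled points have an adjusted p under 0.05. The V segments range from 0.57 (Igkv6-20) to 2.45 (Igkv9-120), and both Igha probe sets lie at 2.25 and 2.80.

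The probe sets that list kappa segments with other genes (Igkc, the joining segment Igkj1, or the symbols Igk-V21 and Map3k20) gave similar values. In all 7 both old arrays lay above both young arrays (14.3% of all annotated probe sets). Their median age differences were 1.88 (low-fat) and 1.10 (high-fat). In 6 of the 7 every pair of an old with a young array differed by over 2.0-fold (0.256% of all over 50). The same number rose in the limma fit (0.573% of all 14846). They are not independent of the 12, since 5 of the 7 share a transcript with a member in their annotation. The 2 others name Igkv9-120 beside other genes, and rose by 2.18 ± 0.23 and 1.81 ± 0.18 on the log2 scale (adjusted p = 0.0024 and 0.0020, limma). In both of these the young high-fat array was higher than the young low-fat array (71.6 against 41.2, and 348 against 216), unlike in the probe set of Igkv9-120 alone.

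Heavy chain V segments were read only by probe sets that also list Igha, and 2 of the 4 list Ighg3 too. The signals of these 2 were 214, 204, 476 and 346 (10403015) and 295, 255, 564 and 395 (10403018) in the order young low-fat, young high-fat, old low-fat and old high-fat. Both had their highest signal on the old low-fat array, with log2 age estimates of 0.96 ± 0.17 (adjusted p = 0.035) and 0.78 ± 0.16 (adjusted p = 0.077) in the limma fit. The third had 0.53 ± 0.17 (adjusted p = 0.60), and the fourth stayed below 50 (29.6 to 47.7). The medians of the 4 were 0.61 (low-fat) and 0.70 (high-fat). For kappa they were 1.36 and 0.77 over the 12 members, and 0.56 and 0.71 over the 9 annotated to 1 segment. Over the 7 kappa probe sets that list other genes they were 1.88 and 1.10. On the low-fat diet the order of the chains thus depended on the kappa set taken. A difference between the chains was not tested, and the heavy chain probe sets are annotated to constant region genes too.

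The 2 lambda probe sets, which list a lambda constant region as well, rose with age by 1.48 ± 0.17 (adjusted p = 0.0036) and 0.93 ± 0.16 (adjusted p = 0.028) in the limma fit. Their signals were 81.0, 67.4, 193 and 219, and 409, 340, 746 and 676, in the order given above. The young low-fat array was higher than the young high-fat array in both, the opposite of Igkv6-14 with Igkv6-15 and of Igkv1-133 with Igkv1-135.

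Among constant regions, Igha (immunoglobulin A) rose with age on both of its probe sets, by 6.96-fold (2.80 ± 0.18, adjusted p = 0.00016) and 4.75-fold (2.25 ± 0.18, adjusted p = 0.00066) in the limma fit. The first had signals of 93.0, 81.2, 775 and 473 in the order given above. As for 6 of the 8 kappa probe sets over 50, the old low-fat array was highest. Ighm (immunoglobulin M) was read by 3 probe sets that disagreed, with changes of 1.12 ± 0.16 (adjusted p = 0.0087), 0.76 ± 0.16 (adjusted p = 0.081) and 0.07 ± 0.16 (adjusted p = 1). Ighg3 (immunoglobulin G) stayed below 50, at 18.0 to 28.7. Of the 12 constant region genes listed, 3 had a probe set of their own; Igkc did not.

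Jchain, which joins immunoglobulin A molecules into dimers, rose 2.51-fold (1.33 ± 0.17, adjusted p = 0.0070, limma), with signals of 426, 469, 1253 and 1009. Of 12 measured plasma cell markers, Jchain included, 10 were over 50 and 1 rose in the limma fit (0.573% of all 14846 did). Both old arrays lay above both young arrays for Jchain, Mzb1, Prdm1, Irf4, Pou2af1 and Derl3 (14.3% of all annotated probe sets). This was not so for Xbp1, Sdc1, Tnfrsf17, Fkbp11, Sec11c and Txndc5. Mzb1, a plasma cell chaperone, had 0.68 ± 0.16 (adjusted p = 0.16), and Xbp1, a regulator of secretion that the epithelium also expresses, -0.02 ± 0.16 (adjusted p = 1). The list had median age differences of 0.12 (low-fat) and 0.08 (high-fat) and summed signals of 5787, 5972, 6338 and 6505. Most of each sum was the signal of Xbp1, Txndc5 (-0.08 ± 0.16 for age, limma) and Sec11c (-0.12 ± 0.16). Mzb1 added only 46.7 to 82.9. The sums therefore say little of the dimmer markers, and which cells gave the bright signals was not tested. Irf4 and Tnfrsf17 were below 50 on all arrays. Pigr had 0.08 ± 0.17 (adjusted p = 1).

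In 12 of 14 measured B cell markers both old arrays lay above both young arrays (14.3% of all annotated probe sets), and the median age differences were 0.43 (low-fat) and 0.47 (high-fat). Their summed signals were 711, 597, 986 and 909. Of the 10 over 50, 1 rose in the limma fit (0.573% of all 14846 did), namely Ms4a1, or CD20 (1.10 ± 0.16, adjusted p = 0.0091). Cd79a, a part of the B cell receptor, had 0.79 ± 0.16 (adjusted p = 0.066, limma). Blk, Cd22, Ebf1 and Fcer2a did not reach 50. Cxcl13, the chemokine that draws B cells into follicles, rose by 1.36 ± 0.16 (adjusted p = 0.0043, limma). It was 1 of 5 lymphoid tissue genes over 50, against the same 0.573% of all. None of 3 germinal centre markers over 50 (Mki67, Bcl6 and S1pr2) passed, and 0 of 3 did at an unadjusted p under 0.05. The study used Ki67, the protein of Mki67, to count proliferating cells of the colon, so Mki67 is not particular to germinal centres. Gcsam and Cxcr5 were below 50 and not tested, so a change of germinal centres cannot be judged here. Rag1, Rag2 and Dntt, which join and diversify V segments in developing lymphocytes, were below 50. The part of cell number in the values of the V segments was not tested.

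T cell receptor V segments, the counterpart family on T cells, did not show such a shift. Of 52 probe sets annotated to them alone, many of which list the same segments, 21 were over 50 and 0 passed 2.0-fold or the limma fit in any comparison. At an unadjusted p under 0.05, limma gave 1 of the 21 for age and 0 for diet. Their medians were 0.00 (low-fat) and -0.04 (high-fat), with a range from -0.53 to 0.56. In 10 of 11 T cell markers both old arrays lay above both young arrays (14.3% of all), with medians of 0.49 and 0.51. Of these markers, 2 of 7 over 50 rose in the limma fit (Cd8a and Cd8b1), against 0.573% of all.

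The limma fit called no V segment for diet, as given below, and single arrays differed over 2.0-fold in 1 probe set at each age. In young mice 1 of the 12 kappa probe sets was over 2.0-fold higher on the high-fat array, where 0.0943% of all were, and 0 were lower (0.0472% of all). This was the probe set of Igkv1-133 and Igkv1-135, at 2.31-fold (log2 1.21), the 9th highest difference of 14846. Igkv6-14 with Igkv6-15 followed at 1.61-fold. The remaining differences in young mice lay between -0.57 and 0.47, 6 of all 12 were above 0 (45.7% of all annotated probe sets), and the median was 0.00 (-0.02 for all annotated probe sets).

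In old mice 1 of the 12 was over 2.0-fold lower with the high-fat diet (0.0606% of all) and 0 were higher (0.0472% of all). It was Igkv4-91, at 4.00-fold lower on the high-fat array, the difference described above for the old low-fat array. Of the 12, 10 were lower on the old high-fat than on the old low-fat array, with a median of -0.27 against 0.01 for all, and 2 were higher (51.1% of all), namely Igkv6-20 (0.37) and Igkv1-133 with Igkv1-135 (0.21). In 0 of the 12 did both high-fat arrays lie above both low-fat arrays (11.8% of all) or below them (13.6%). Igha (1.64-fold and 1.59-fold lower) and Jchain (1.24-fold lower) were also lower on that array. The diet comparison in old mice and the age comparisons share the old arrays, so a high signal on the old low-fat array enters both.

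In the limma fit 0 of the 8 probe sets over 50 changed with diet (0% of all 14846), each with an adjusted p of 1. At an unadjusted p under 0.05 there were 2, against 0.734% of all: Igkv1-133 with Igkv1-135 (0.71 ± 0.22) and Igkv4-91 (-1.04 ± 0.34).

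**Figure D4:**
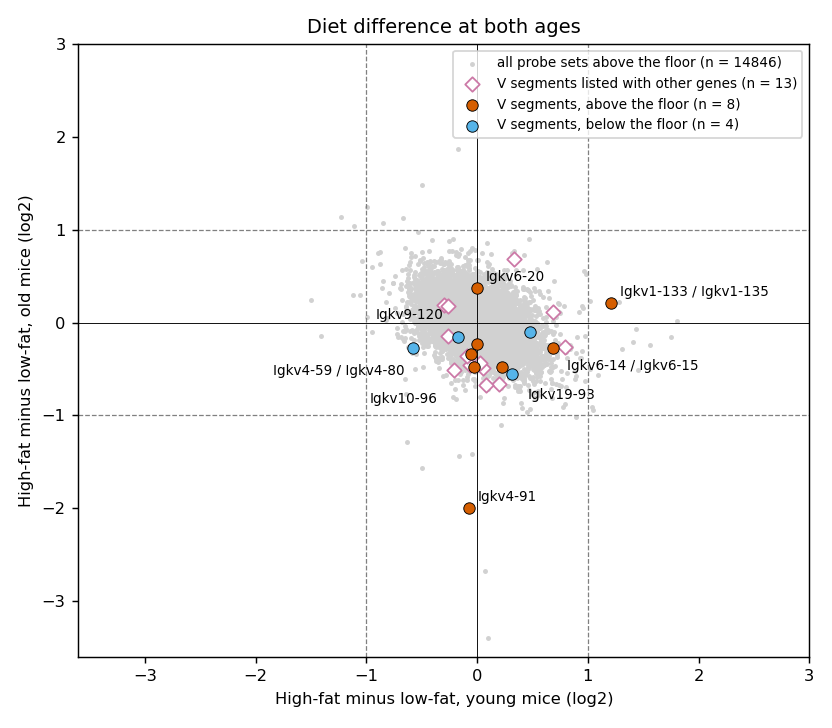
Log2 difference between the high-fat and low-fat arrays in young mice (horizontal axis) and in old mice (vertical axis); grey points are the 14846 annotated probe sets over 50, coloured circles the 12 kappa V segment probe sets and open diamonds the 13 probe sets that list V segments with other genes. Most circles lie inside the dashed lines at 2.0-fold; Igkv1-133 with Igkv1-135 lies beyond to the right (1.21) and Igkv4-91 beyond below (-2.00).

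The age difference of single segments differed between the diets. Given as high-fat minus low-fat on the log2 scale, it was -1.93 for Igkv4-91, and it was near -1 for Igkv1-133 with Igkv1-135 (-0.995) and Igkv6-14 with Igkv6-15 (-0.96). It was higher on the high-fat diet for Igkv6-20 (0.37), and nearest to equal among those over 50 for Igkv9-120 (-0.23) and Igkv4-59 with Igkv4-80 (-0.28). This difference is the residual of the limma fit and was not tested. Age differences also varied within numbered families, which was not tested. Among the Igkv4 probe sets they were 2.71 (low-fat) and 0.79 (high-fat) for Igkv4-91, and 1.31 and 1.03 for Igkv4-59 with Igkv4-80. Igkv4-55 had 0.56 and -0.31. Among the Igkv6 probe sets they were 2.34 and 1.38 for Igkv6-14 with Igkv6-15, and 0.38 and 0.76 for Igkv6-20.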

How the data were processed

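Pooled RNA of 4 groups of mice was measured on 1 array each. The authors deposited log2 signals made with RMA (background subtraction, quantile normalization, probe summary), version not given in the sources used here. Quantile normalization gives all arrays a common distribution, and fold changes against signals below 50 are not exact. Gene symbols came from the platform annotation of 2016; it gave 1 gene for 21789 probe sets, several for 1621 and none for 12146. The 14 segments named by the members matched the RefSeq gene table (GRCm38.p6) by Entrez identifier and symbol; it was used for names and order only, and no coordinates or segment sequences are given.

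With the limits of the study, a probe set was counted when its linear signal was over 50 on at least 1 array and both arrays differed by over 2.0-fold. The study applied them to probes regrouped by Entrez identifier. Here they were applied to the deposited probe sets, so the counts are not those of the study. The 29 probe sets of 33 pancreatic acinar genes were removed, in place of the atlas used by the study, which left 14846. An additive fit of age and diet (lmFit and eBayes of limma 3.58.1 in R 4.3.3), not run by the study, had 1 residual and 9.25 prior degrees of freedom; p-values were adjusted over all 14846 by Benjamini-Hochberg and called under 0.05. In data simulated for age over 14846 probe sets it called 97% of 100 with a log2 change of 1, 100% of 100 with 1.5 and 0.191% of the 14646 unchanged. The simulated noise was drawn from the spread that the fit itself estimated. These rates therefore hold only under the assumptions of the fit and say nothing of variation between replicate pools. Figures were drawn in Python 3.11.15.

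The members and gene lists were chosen with earlier results of these data known. Where a listed gene had several probe sets, counts use the brightest. Named were all members annotated to 1 segment that passed 2.0-fold or the fit, those with the highest age by diet differences, repeated probe sets, and members of the antibody, plasma cell and B cell lists. Probe sets with several segments are given with all segments and their number. Genes of the other lists (among them Alb, Serpina1c, Cxcl13, Cd8a, Cd8b1, Rag1, Rag2, Dntt, Pigr) and the remaining members were named after their values were seen. The number of arrays limits the precision. Other floors, fold thresholds, normalizations and fits were tried. The search for an octamer motif was not run.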

Additional observations from a re-analysis of the deposited data

Results flagged for a closer look

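In the following probe sets the same contrast went in opposite directions in a pair of groups, each difference being larger than the standard deviation over all annotated probe sets; with 1 array per group the differences were not tested. The old minus young log2 difference of Igkv4-55 was 0.56 (low-fat) and -0.31 (high-fat), at signals below 50. Its high-fat minus low-fat difference was 0.32 in young and -0.55 in old mice. That of Igkv19-93 (10545177) was 0.23 in young and -0.48 in old mice, and that of the probe set of Igkv6-14 and Igkv6-15 was 0.68 in young and -0.28 in old mice.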

How the results depend on the processing

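The age counts are those of 7 (low-fat) and 5 (high-fat) kappa probe sets. At 3.0-fold they were 4 and 1, at 1.5-fold the high-fat count was 8, with members of 1 segment alone they were 4 and 2, and with the 13 mixed probe sets added (chosen after seeing the data) 15 and 12. The diet count of 1 in young mice became 2 at 1.5-fold, 0 at 3.0-fold and 0 with members of 1 segment alone; that in old mice was 1 in every setting run. The limma count of 6 for age was 1 without a floor, 15 with mixed probe sets added and 4 without the diet term; with 1 array left out, which also drops that term, it was 3 to 6; that for diet was 0 in every setting run. The median age difference of the 12 (1.36 and 0.77) was 1.82 and 1.06 over those above 50, a filter that favours members high on 1 array, and 0.56 on the low-fat diet with members of 1 segment alone. The median diet difference in young mice, near 0 (-0.0017), turned to 0.018 after median centring and 0.062 after quantile normalization. No paired analysis was possible because replicate numbers pair no arrays, each group having 1; the additive fit already sets old against young within diet. Medians of heavy chain members could not be given, since there were none. With members alone, signals below 50 limit what can be said of 4 of the 12.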
